A study of Mus musculus with 6 samples.

Results

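The 10 genes described here are used to tell epithelial from mesenchymal cells. The epithelial genes are Cdh1, Esrp1, Krt8 and Krt18, and the mesenchymal genes are Cdh2, Vim, Zeb1, Zeb2, Snai2 and Twist1. They were taken by gene symbol from the 6 deposited tables, each of 14701 rows, and all 10 had a row in every table. The RNA came from IEC 4.1, a mouse line whose labels give the cell type as intestinal epithelium. The 3 IFN gamma libraries (replicates 1, 2 and 4) came from cells exposed for 6 h to interferon gamma (10 ng/ml), and the 3 control libraries (replicates 2, 3 and 4) from cells without it, all grown to the same stated confluence. The labels name no genetic change. They do not say that the replicates were separate cultures, so the p-values measure only the spread between these samples, which may be technical.

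Epithelial cells hold together through E-cadherin (Cdh1) at adherens junctions, carry a network of keratin filaments (Krt8 paired with Krt18 in simple epithelia such as the gut lining), and splice many transcripts under the control of Esrp1. Mesenchymal cells use N-cadherin (Cdh2) and filaments of vimentin (Vim) in their place. In the epithelial-mesenchymal transition (EMT), the transcription factors Zeb1, Zeb2, Snai2 and Twist1 repress the epithelial genes; the Zeb and Snai proteins do so by binding E-box sequences of the form CACCTG.

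IEC 4.1 had the mesenchymal genes at levels from near the median of all rows to very high, and the epithelial genes at or near 0, in both groups. The 6 mesenchymal genes summed to 3060, 3043 and 2978 TPM (a level scaled for gene length and library) in IFN gamma libraries, against 2564, 2717 and 2729 TPM in control libraries. Most of this sum was Vim. Without Vim the sum was 154.6, 151.7 and 151.6 TPM in IFN gamma libraries, against 149.2, 160.8 and 157 TPM in control libraries, and the groups overlapped. The 4 epithelial genes summed to 0.3, 0.4 and 0.41 TPM in IFN gamma libraries, against 0.59, 0.6 and 0.53 TPM in control libraries. These epithelial sums rested on 6 to 11 reads per library out of 17490689 to 18678543. With IFN gamma, Zeb2, Vim, Zeb1 and Twist1 rose by 1.48-fold or less, while Snai2 and Cdh2 did not pass the test.

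**Figure D1:**
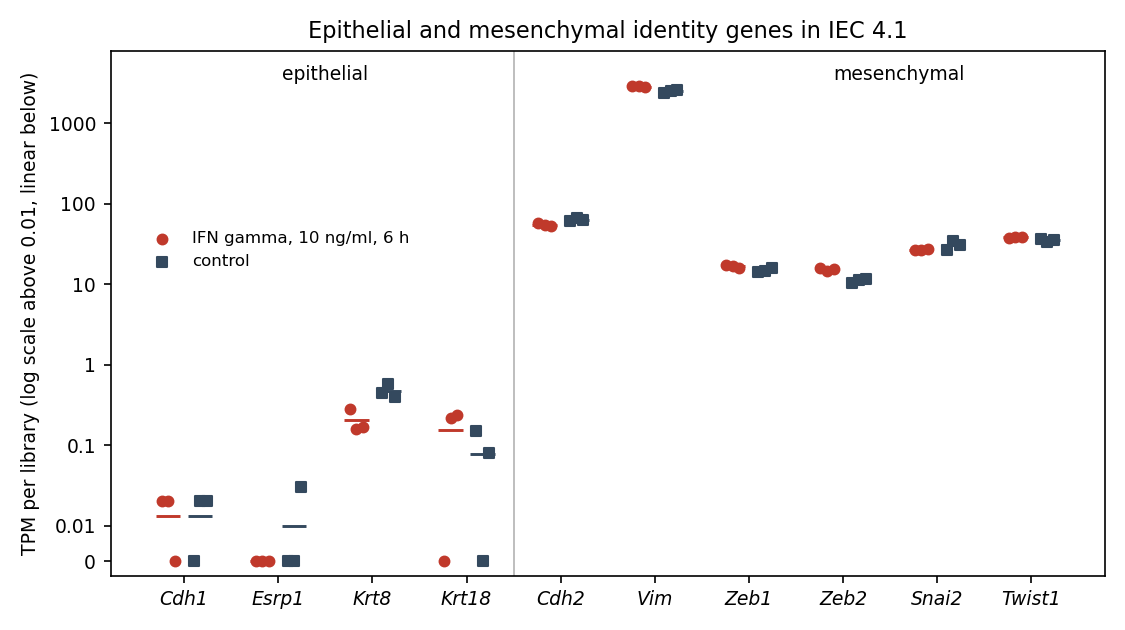
TPM of each of the 10 genes in every library, on an axis that is logarithmic above 0.01 TPM and linear below it. Circles are the 3 IFN gamma libraries, squares the 3 control libraries and short lines the group means; the epithelial genes lie at or under 0.58 TPM and the mesenchymal genes at or over 10.49 TPM in every library.

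The stretches around the E-box of Krt18 and around the gamma-activated site of Zeb2 are printed as matches to a known motif. Whether a match bears on the level or change of its gene was not tested. Promoter windows of RefSeq on GRCm38.p6 were matched for 5 of the 10 genes (Krt8, Krt18, Vim, Zeb2 and Twist1), and the 250 bases before each start were searched on both strands. The letters CACCTG were found in 17.2% of the 32851 windows of all genes, and TTCNNNGAA, the gamma-activated site of interferon-responsive genes, in 7.02%. Each sequence below reads 5′ to 3′ on the strand of its gene, with the matched motif in capitals:
Krt18, chr15:102027990-102028019, plus strand: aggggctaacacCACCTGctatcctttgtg
Zeb2, chr2:45113407-45113436, minus strand: agttctccagTTCTGTGAAtggtgtgcacc
The CACCTG match lay 214 bases before the RefSeq start of Krt18. The Zeb2 match lay 147 bases before one of the gene's alternative starts, and a GENCODE M21 exon of Zeb2 also covers it. It is in 2 overlapping windows of the 4 searched for Zeb2, while the 7.02% is a share of single windows and not of genes with several. Neither motif was found in the windows of Vim or Twist1. A match describes letters only and does not show that a factor is bound.

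Of the epithelial genes, Krt8 (NCBI Gene 16691, chromosome 15, 101996711 to 102004342), a type II keratin, was the most abundant by group mean, although Krt18 was higher in TPM in 2 of the 3 IFN gamma libraries. Krt8 had 5, 3 and 3 reads in IFN gamma libraries, against 8, 10 and 7 reads in control libraries. On the TPM scale these were 0.28, 0.16 and 0.17 in IFN gamma libraries, against 0.44, 0.58 and 0.4 in control libraries, so the groups did not overlap. Of all 14701 rows, 28.8% were lower in IFN gamma without overlap on the TPM scale, and 11.7% were higher. The ratio of depth-scaled reads was 0.445 (exact 95% binomial interval 0.198 to 0.939, which covers counting error only). The difference in TPM had an exact two-sided permutation p of 0.1, the smallest that 3 against 3 libraries allow. Krt8 was below the low-count filter and was not tested with the other genes; with no filter, edgeR's quasi-likelihood test gave a log2 change of -1.07 (adjusted p = 0.136), and limma on log2(TPM + 1) gave -0.29 (adjusted p = 0.0115). No row of the tables is at 0 in all 3 control libraries, while 673 rows are at 0 in all 3 IFN gamma libraries. A gene with no read in the IFN gamma libraries, such as Esrp1, Grhl2 or Ptprc, therefore has a row only with some reads in control. Its lower level with IFN gamma is then given in advance. The part of this in the Krt8 values was not tested.

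Krt18 (NCBI Gene 16668, chromosome 15, 102028216 to 102032026), the type I keratin that pairs with Krt8, had 0, 3 and 3 reads in IFN gamma libraries, against 2, 0 and 1 reads in control libraries. Cdh1 (NCBI Gene 12550, chromosome 8, 106603350 to 106670247) had 1, 1 and 0 reads in IFN gamma libraries, against 0, 1 and 1 in control libraries. Esrp1 (NCBI Gene 207920, chromosome 4, 11331933 to 11386783), the splicing regulator, had no read in any IFN gamma library and 0, 0 and 1 reads in control libraries. A count of 0 allows up to 3 reads, which is 0.161 to 0.172 CPM (reads scaled to library size) in the IFN gamma libraries and 0.162 to 0.164 CPM in the control libraries. None of these differences was detectable at this depth, and the groups overlapped for all 3 genes. The deposited counts of the 10 genes were whole in every library. By TPM, 17.9% to 20.5% of rows lay under Krt8 in IFN gamma libraries and 22.4% to 24.3% in control libraries.

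Other genes of the epithelial programme were looked up to place these levels. Of 28 junction and polarity genes, 16 had a row and 5 were tested; the other 12, Epcam, Cldn3, Cldn7 and Ocln among them, were not analysed here. The list summed to 51.7 to 55.2 TPM in IFN gamma libraries and 54.9 to 62.7 TPM in control libraries, most of it the desmosome protein Pkp2 (30.5 ± 2.15 TPM with IFN gamma and 32.9 ± 2.29 TPM in control, mean ± SD, n = 3 each) and the tight junction protein Cgn (10.9 ± 0.475 TPM with IFN gamma and 11.1 ± 1.13 TPM in control). Only the polarity gene Llgl2 was called, 1 of the 5 tested, and it fell by 0.36 on the log2 scale (edgeR adjusted p = 0.00481). Of all tested genes, 38.1% were called and 18.1% fell. The desmosomal plaque gene Dsp was at 0.01 TPM or less on average in both groups.

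Of 21 epithelial transcription and splicing regulators, 10 had a row and 5 were tested. Esrp2, Ovol1, Ovol2, Elf3, Hnf4a and Cdx2 were among the 11 not analysed here, and Grhl2, which maintains Cdh1 expression, had a mean of 0 TPM with IFN gamma and 0.0133 TPM in control. Klf5, a zinc finger factor of the crypt epithelium that other cell types also express, was the highest, at 27.6 ± 3.75 TPM with IFN gamma and 35.1 ± 3.45 TPM in control (log2 -0.23, edgeR adjusted p = 0.0383). Klf5 was the 1 gene called of the 5 tested, where 38.1% of all tested genes were called and 18.1% fell. No gene of the list fell with DESeq2 or when control replicate 2, control replicate 4 or IFN gamma replicate 4 was left out, and 2 fell on total counts, after upper-quartile scaling and in limma on log2(TPM + 1). Without control replicate 4, without IFN gamma replicate 1 or with no filter, 1 gene of the list rose. The endoderm factor Gata4 stood at 6.02 ± 0.474 TPM with IFN gamma and 6.93 ± 0.43 TPM in control (adjusted p = 0.494).

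The keratins of simple epithelia were as low as Krt8 and Krt18. Krt19 averaged 0.173 TPM with IFN gamma and 0.147 TPM in control, and Krt7 averaged 0.13 TPM with IFN gamma and 0.0233 TPM in control. Krt80, a type II keratin of stratified and other epithelia, was the exception. It had 21.8, 20.4 and 19.4 TPM in IFN gamma libraries, against 28.6, 29.6 and 30.5 TPM in control libraries, and the groups did not overlap. It fell by 0.42 ± 0.036 (log2 change ± SE over the replicates, edgeR adjusted p = 8.95e-06). Of 15 enterocyte and secretory markers, 8 had a row, and 6 of those, the brush border gene Vil1, the intestinal cadherin Cdh17 and the goblet cell mucin Muc2 among them, averaged under 0.2 TPM in both groups. Anpep, a brush border peptidase also made outside the gut, and Dclk1, a tuft cell marker, were the 2 tested. They fell by 0.44 and by 0.41 on the log2 scale (edgeR adjusted p = 0.00471 and 0.00182), where 18.1% of all tested genes fell. Anpep averaged 2.69 TPM with IFN gamma and 3.94 TPM in control, and Dclk1 averaged 3.21 TPM with IFN gamma and 4.76 TPM in control. The label of intestinal epithelium is therefore not matched by the transcripts of Cdh1, Esrp1, Krt8, Krt18, Vil1, Cdh17 and Muc2 in these libraries. Other genes of the epithelial lists, Pkp2, Cgn, Klf5 and Krt80 among them, were expressed, as were Anpep and Dclk1 at lower levels. The statement does not cover the listed genes that were not analysed here.

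Vim (NCBI Gene 22352, chromosome 2, 13574311 to 13582826), the intermediate filament of mesenchymal cells, had 2906, 2891 and 2826 TPM in IFN gamma libraries, against 2415, 2556 and 2572 TPM in control libraries. All 3 IFN gamma libraries lay above all 3 controls. By group mean it ranked 47 of 14701 rows with IFN gamma and 60 in control. It rose by 0.30 ± 0.018 on the log2 scale, a fold of 1.23 (edgeR adjusted p = 2.63e-05). On the TPM scale the ratio of Vim to Krt8 was 14140 with IFN gamma and 5312 in control; its denominator is 11 and 25 reads in all. Of other intermediate filament genes, nestin (Nes) averaged 315 ± 15 TPM with IFN gamma and 318 ± 16 TPM in control (adjusted p = 0.152), while desmin (Des), the muscle filament, fell by 0.60 on the log2 scale, to 0.863 TPM with IFN gamma, against 1.41 TPM in control (edgeR adjusted p = 0.016).

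Of the 11423 genes tested, 19.9% rose and 18.1% fell with IFN gamma, 38.1% in all, and against these shares 4 of the 6 mesenchymal genes rose and none fell. Their median log2 change was 0.25, against 0.01 for all genes tested. Among these 6 genes, 2 to 4 rose and 0 to 1 fell under the 17 alternatives at the same threshold. In limma on log2(TPM + 1), 2 rose and 1 fell. The share of rises among all calls was 52.4%, and it was 38.6% after upper-quartile scaling and 34.5% on total counts. For changes of this size the scaling therefore matters. It is given beside each of the 6 mesenchymal genes where it changes a call, and not beside each gene of the other lists. In bulk RNA, fewer cells of a type and less RNA per cell cannot be told apart.

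Zeb2 (NCBI Gene 24136, chromosome 2, 44983512 to 45117442), a zinc finger repressor of Cdh1, changed most of the 6. It had 16, 14.6 and 15.3 TPM in IFN gamma libraries, against 10.5, 11.4 and 11.7 TPM in control libraries. The median of all rows was 11.2, 12 and 12.1 TPM in the same control libraries, above Zeb2 in each. The groups were clearly apart, with 1601, 1553 and 1513 reads in IFN gamma libraries against 1095, 1101 and 1154 reads in control libraries. Zeb2 rose by 0.57 ± 0.028 on the log2 scale, a fold of 1.48 (edgeR adjusted p = 2.46e-08). Its call held under each of the 18 alternatives run, with log2 changes of 0.43 to 0.59.

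Zeb1 (NCBI Gene 21417, chromosome 18), its paralogue, had 17.4, 16.7 and 15.9 TPM in IFN gamma libraries, against 14.3, 14.8 and 15.9 TPM in control libraries. The lowest IFN gamma library, at 15.91 TPM, and the highest control, at 15.86 TPM, nearly met. Zeb1 rose by 0.25 ± 0.052 on the log2 scale (edgeR adjusted p = 0.00223), but it did not pass in limma on log2(TPM + 1), where the log2 change was 0.14 (adjusted p = 0.17). Zeb2 stood below Zeb1 in every control library and overlapped it with IFN gamma.

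Twist1 (NCBI Gene 22160, chromosome 12, 33957671 to 33959831), a helix-loop-helix factor of the mesoderm and neural crest, had 37.3, 39 and 39.1 TPM in IFN gamma libraries, against 36.3, 33.4 and 35.4 TPM in control libraries. It rose by 0.24 ± 0.074 on the log2 scale (edgeR adjusted p = 0.00918). That call was lost on total counts (log2 0.17, adjusted p = 0.0534), in limma on log2(TPM + 1) (0.13, adjusted p = 0.121) and without control replicate 3 (0.18, edgeR adjusted p = 0.0788), the library in which Twist1 was lowest.

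Snai2 (NCBI Gene 20583, chromosome 16, 14705852 to 14709395), the repressor also called Slug, had 26.6, 26.8 and 27.6 TPM in IFN gamma libraries, against 26.9, 34.7 and 30.9 TPM in control libraries. The groups overlapped, the controls were more spread, and control replicate 3 was highest. The log2 change was -0.08 ± 0.087 (edgeR adjusted p = 0.433). Twist1 and Snai2 overlapped in control libraries, while Twist1 lay above Snai2 in every IFN gamma library.

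Cdh2 (NCBI Gene 12558, chromosome 18, 16588877 to 16809246) had 57.4, 54.5 and 53.7 TPM in IFN gamma libraries, against 61.2, 66.6 and 63.2 TPM in control libraries. All IFN gamma libraries lay below all controls on that scale. TMM scaling trims the genes of most extreme ratio. After it, the log2 change was -0.10 ± 0.022, with an SE over the replicates that the edgeR test does not use. The edgeR adjusted p was 0.136, so Cdh2 did not pass. It passed as a fall on total counts (log2 -0.17, adjusted p = 0.00942), after upper-quartile scaling (-0.15, adjusted p = 0.0194) and in limma on log2(TPM + 1) (-0.20, adjusted p = 0.0135).

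**Figure D2:**
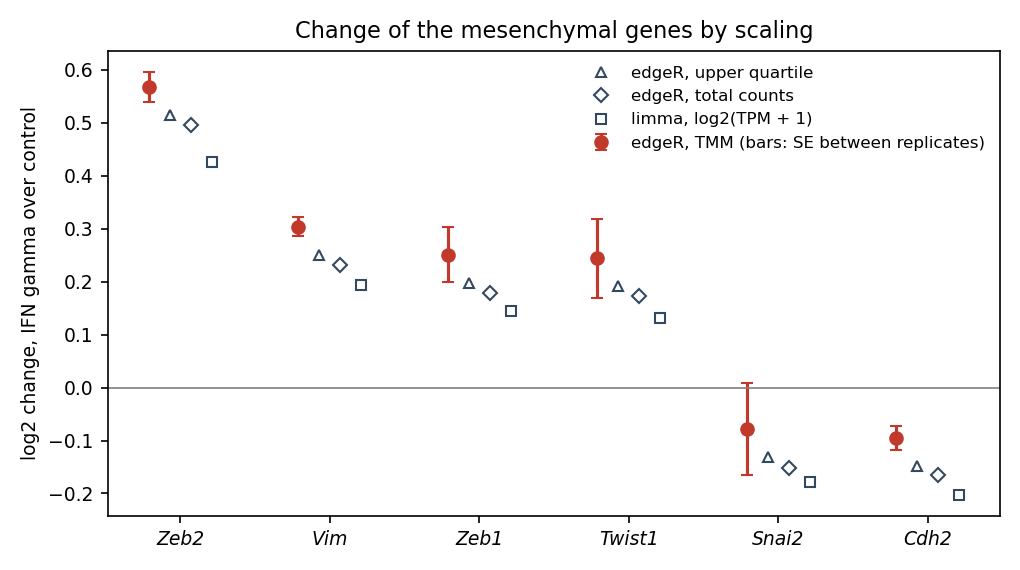
log2 change (IFN gamma over control) of the 6 mesenchymal genes by scaling: filled circles are edgeR with TMM, with bars of ± 1 SE between replicates (n = 3 each), and open symbols are edgeR with upper-quartile scaling or total counts and limma on log2(TPM + 1). Every alternative scaling shifts all 6 genes downwards, and Zeb2, at 0.43 to 0.57 here, stays the highest in each.

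The order of levels was Vim, Cdh2, Twist1, Snai2, Zeb1, Zeb2, Krt8, Krt18 in control libraries by mean TPM, with Cdh1 and Esrp1 last, and it was the same with IFN gamma. Neighbours in that order whose ranges overlapped were Twist1 and Snai2 in control, Zeb1 and Zeb2 with IFN gamma, Krt8 and Krt18 with IFN gamma, and the lowest genes in both groups. Exons of Zeb2 overlap the antisense gene Zeb2os, and those of Zeb1, Krt8 and Esrp1 overlap Gm10125, Gm36026 and Gm26663 on the opposite strand. The sources used here do not say whether reads were counted by strand, so reads of these partners cannot be told apart.

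Zeb1 and Zeb2 both rose, but the relatives of Twist1 and Snai2 fell. Twist2 had 1216, 1153 and 1120 reads in IFN gamma libraries, against 2172, 2001 and 1851 reads in control libraries, and fell by 0.70 ± 0.075 on the log2 scale (edgeR adjusted p = 7.83e-09). By mean TPM, at 94.5 with IFN gamma and 165 in control, it was the most abundant of the 6 genes of these families named here. Snai1 had 16.2, 14.1 and 13.9 TPM in IFN gamma libraries, against 24.7, 23.8 and 24 TPM in control libraries, and fell by 0.61 ± 0.066 (edgeR adjusted p = 5.08e-06). Within a library, a ratio of 2 genes does not depend on scaling. The ratio of Twist1 to Twist2 averaged 0.408 ± 0.0319 with IFN gamma and 0.213 ± 0.0157 in control (TPM, SD, n = 3 each). That of Snai2 to Snai1 averaged 1.85 ± 0.184 with IFN gamma and 1.28 ± 0.183 in control. That of Zeb2 to Zeb1 averaged 0.921 ± 0.0443 with IFN gamma and 0.745 ± 0.0197 in control. In log2 read ratios these were differences of 0.94 ± 0.091, 0.54 ± 0.147 and 0.32 ± 0.053 (± SE). The IFN gamma libraries lay above the controls in all 3 ratios.

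Among other cadherins of the list, Cdh11, a cadherin of mesenchymal cells, had 71, 65 and 65 TPM in IFN gamma libraries, against 39.9, 45.1 and 42 TPM in control libraries. It rose by 0.77 ± 0.035 on the log2 scale (edgeR adjusted p = 5.76e-11). The ratio of Cdh11 to Cdh2 averaged 1.21 ± 0.0217 with IFN gamma and 0.665 ± 0.0127 in control, a difference of 0.87 ± 0.021 in log2 read ratios, so Cdh11 passed Cdh2 in level per length. The exact two-sided permutation p was 0.1 for each of these 4 ratios, the smallest that 3 against 3 libraries allow, and 0.1 after Benjamini-Hochberg adjustment over the 4; the pairs were chosen after their values were seen. Cdh13, a cadherin anchored by a lipid, was at 26.1 ± 1.35 TPM with IFN gamma and 25 ± 0.72 TPM in control (log2 0.17, edgeR adjusted p = 0.0172), and the groups overlapped. The 2 tested cadherins of this list rose, where 19.9% of all tested genes rose. In place of 2, 1 of these tested cadherins rose on total counts, after upper-quartile scaling, in limma on TPM, with the replicate number as a block and without control replicate 3, control replicate 4 or IFN gamma replicate 1. Cdh3, the placental cadherin of epithelia, stayed under 0.1 TPM on average in both groups.

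**Figure D3:**
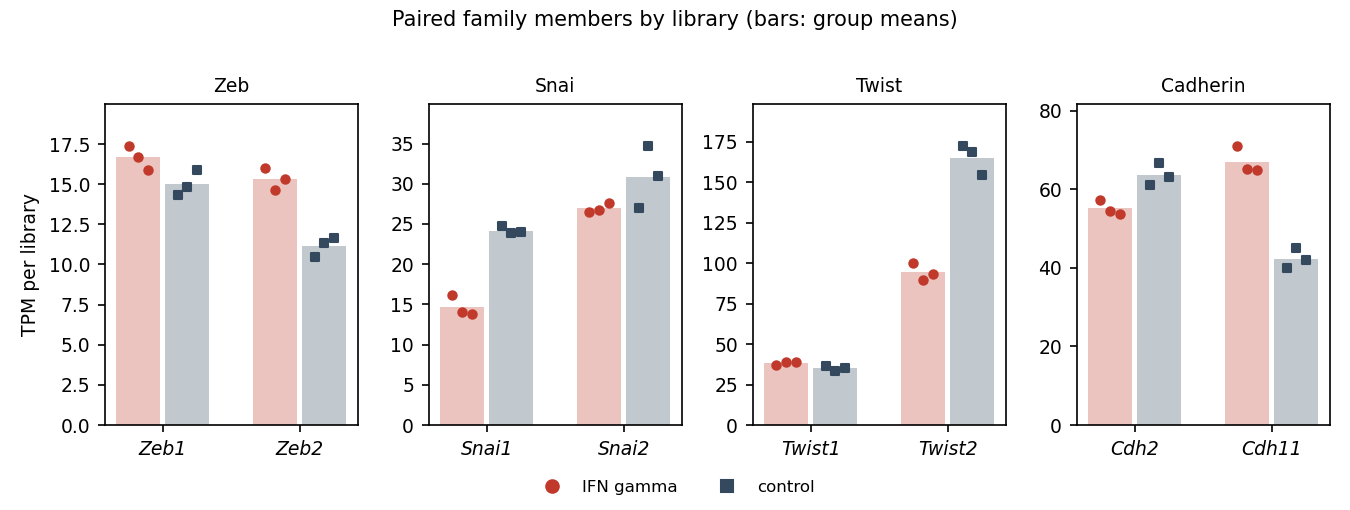
TPM per library of the Zeb, Snai and Twist genes and of Cdh2 and Cdh11, with circles for the 3 IFN gamma libraries, squares for the 3 control libraries and bars for group means from 0. Twist2 and Snai1 are lower and Cdh11 higher in every IFN gamma library, while Twist1 and Zeb2 are higher and Snai2 overlaps.

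The catenins, which tie cadherins to actin, were abundant although Cdh1 was near 0. Beta-catenin (Ctnnb1) averaged 222 ± 6.09 TPM with IFN gamma and 247 ± 10.2 TPM in control (adjusted p = 0.513), and alpha-catenin (Ctnna1) averaged 174 ± 5.38 TPM with IFN gamma and 182 ± 3.76 TPM in control (adjusted p = 0.536). Of 12 tested genes of adherens and tight junction plaques and nectins, 3 rose and 5 fell, where 19.9% of all tested genes rose and 18.1% fell. The nectin adhesion molecule Nectin2 rose by 0.33 and the junctional adhesion molecule F11r by 0.39 on the log2 scale (edgeR adjusted p = 0.000112 and 4.12e-05), and p120-catenin (Ctnnd1) rose by 0.27 (edgeR adjusted p = 0.000364). Vinculin (Vcl), which links junctions to actin, fell by 0.28 (edgeR adjusted p = 0.000107). Nectin1 fell by 0.79 (edgeR adjusted p = 0.00032) and Nectin3 by 0.18 (edgeR adjusted p = 0.0367), against the direction of Nectin2. The plakoglobin gene Jup, a catenin, fell by 0.24 (edgeR adjusted p = 0.012). The count of falls was 3 to 6 under the 17 alternatives at the same threshold.

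Other EMT factors and their partners fell more often than they rose. Of 21 tested, 12 fell and 2 rose, with a median log2 change of -0.23, where 18.1% of all tested genes fell; under the 17 alternatives at the same threshold 12 to 15 fell and 2 rose. Besides Twist2 and Snai1, the chromatin protein Hmga2 fell by 0.79 ± 0.066 on the log2 scale, to 57.6 ± 2.99 TPM with IFN gamma, against 108 ± 10.4 TPM in control (edgeR adjusted p = 2.64e-10), and Runx1 fell by 0.46 (edgeR adjusted p = 1.18e-06). The 2 that rose were Tcf4 (log2 0.39), which encodes a partner of Twist proteins, and Sox4 (log2 0.41), both named after their values were seen. Ctbp1, a corepressor that Zeb proteins recruit, was the most abundant at 176 ± 9.15 TPM with IFN gamma and 194 ± 8.15 TPM in control (adjusted p = 0.72), and Tcf3, whose product pairs with Twist1, had log2 -0.14 (edgeR adjusted p = 0.0503).

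Transforming growth factor-beta (TGF-beta) is the best known inducer of EMT, and 12 of 16 tested genes of a list of its pathway and of other inducers fell while 1, the receptor Notch1, rose, with a median log2 change of -0.42, where 18.1% of all tested genes fell and 19.9% rose; 11 to 13 fell and 1 rose under the 17 alternatives at the same threshold. The signal transducer Smad3 had 6.69, 6.61 and 6.15 TPM in IFN gamma libraries, against 13.7, 13.4 and 14.6 TPM in control libraries, and the groups did not overlap. Smad3 fell by 0.97 ± 0.062 on the log2 scale (edgeR adjusted p = 3.48e-10), the ligand Tgfb1 by 0.71 ± 0.059 (edgeR adjusted p = 7.69e-09) and the receptor Tgfbr2 by 0.48 ± 0.035 (edgeR adjusted p = 1.27e-07). Smad2 and Smad4 had log2 -0.10 and -0.03 (edgeR adjusted p = 0.161 and 0.694). The falls also included Smad7 (log2 -0.69), Skil (-0.34) and Ski (-0.25), which restrain the pathway, and Notch2 and Jag1 of the Notch pathway.

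Of 18 listed mesenchymal matrix and fibroblast genes, 16 had a row and 15 were tested; Lum, a small proteoglycan, was under 0.1 TPM on average in both groups. Of the 15, 10 fell while 1, the proteoglycan Dcn, rose, against 18.1% and 19.9% of all genes tested; the median log2 change was -0.28, and 10 to 12 fell under the 17 alternatives at the same threshold. The calcium-binding S100a4, a fibroblast marker, was the most abundant at 9001 ± 779 TPM with IFN gamma and 9188 ± 503 TPM in control (adjusted p = 0.404), and Sparc averaged 741 ± 31.4 TPM with IFN gamma and 819 ± 15.9 TPM in control. Collagen Col1a1 averaged 355 ± 35.7 TPM with IFN gamma and 480 ± 15.2 TPM in control, and Pdgfra and Pdgfrb fell by 0.65 and 0.60 on the log2 scale. Of 8 tested contractile genes 3 fell and none rose, where 18.1% of all tested genes fell and 19.9% rose. The share called in either direction was close to the 38.1% of all tested genes. Tpm1 was at 1693 ± 26 TPM with IFN gamma and 2195 ± 100.1 TPM in control (log2 -0.26, edgeR adjusted p = 0.000159). Smooth muscle actin (Acta2) was at 510 ± 12.4 TPM with IFN gamma and 583 ± 11.2 TPM in control (adjusted p = 0.319). Of the contractile genes, 2 to 6 fell under the 17 alternatives, with 6 in limma on TPM.

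**Figure D4:**
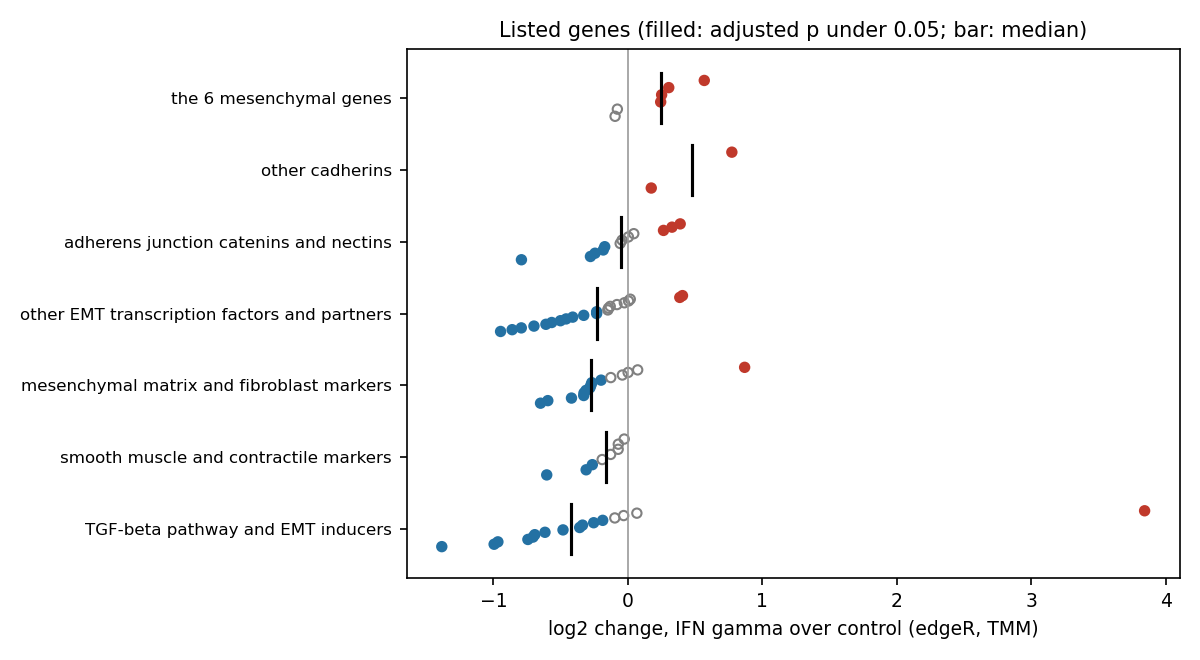
log2 change (IFN gamma over control, edgeR with TMM) of each tested gene, by list; filled points passed an adjusted p of 0.05, open points did not, and vertical bars are list medians. The 6 mesenchymal genes have a median of 0.25, the 2 tested other cadherins 0.47, and the adherens junction list -0.05. The medians of the other EMT factors, matrix, contractile and TGF-beta lists are -0.23, -0.28, -0.16 and -0.42.

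The 6 leukocyte markers with a row summed to 24.2 to 24.8 TPM in IFN gamma libraries and 26.9 to 32.4 TPM in control libraries, nearly all of it Cd14, and the pan-leukocyte Ptprc had no read with IFN gamma and 0, 1 and 1 reads in control; neither tested member passed, but 1 fell on total counts, after upper-quartile scaling and in limma on TPM. The 3 endothelial markers with a row summed to 0.12 to 0.27 TPM with IFN gamma and 0.11 to 0.15 TPM in control, and none was tested. The treated libraries carried their label: Irf1, a transcription factor of the interferon response, averaged 929 ± 12.5 TPM with IFN gamma and 84 ± 2.42 TPM in control, and all 5 listed interferon targets rose.

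The genes whose profiles over the 6 libraries lay nearest to each member were found by Euclidean distance between mean-centred log2 CPM. For Zeb2 they were Chka and Mknk1 (distances 0.055 and 0.072), for Vim Tmem128 and Lhfp (0.04 and 0.047), for Zeb1 Fgd3 and Lmtk2 (0.045 and 0.048) and for Twist1 Stk40 and Cdc25c (0.066 and 0.078). For Cdh2 the nearest was Cers2 (0.027), and for Snai2 they were Ddhd2 and Ppa2 (0.063 and 0.065). With 2 groups of 3 libraries such likeness mostly restates a similar difference between the groups.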

How the data were processed

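Each library had 1 table. The authors deposited estimated counts per gene, 6.8% to 7.37% of them not whole, with TPM and FPKM beside them, per the file headers. Per the submitters' processing notes, the tools were HISAT and HISAT2 and the builds mm10 and GRCm38.p6; their roles and the counting program were not given in the sources used here. Counts were rounded and tested with edgeR 4.0.16 (R 4.3.3): filterByExpr (minimum count 10) kept 11423 genes, libraries were scaled by TMM, and glmQLFTest was run on IFN gamma over control. The p-values were adjusted by Benjamini-Hochberg across every tested gene and called under 0.05. Standard errors come from the replicates' log2 CPM (prior count 2). They are not the error that the edgeR test uses, so a change of several SE need not pass. Limma 3.58.1 tested TPM on a log2 scale with a pseudocount of 1 or 0.1, where a fold change understates that of low genes; FPKM entered only a check of ranks. Ratios of low genes have exact Clopper-Pearson intervals.

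DESeq2 1.42.0, limma-voom, other scalings and filters, a threshold of 0.01, a replicate block and each library left out were the alternatives. The edgeR step was tested on simulated data. Gene coordinates are RefSeq's on GRCm38.p6; the start of Zeb1 differed from the tables and is not printed. The members, the 15 other lists and the tests were chosen with earlier results of these data known. Besides the members, the rule named up to 3 genes of highest TPM and 3 of smallest adjusted p in each list; other listed genes were named after their values were seen. Some genes that this rule names, and 1 sequence, are not reported here.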

Additional observations from a re-analysis of the deposited data

How the results depend on the processing

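The calls of Vim and Zeb2 held under all 18 alternatives, and Snai2 passed under none. The calls of Zeb1 were lost in limma on TPM (log2 0.14 with a pseudocount of 1 and 0.15 with 0.1), and those of Twist1 there (0.13 and 0.14), on total counts (0.17) and without control replicate 3, with a range of 0.18 to 0.30 over left-out libraries. Cdh2 passed as a fall with upper-quartile scaling (-0.15), total counts (-0.17) and limma on TPM (-0.20 and -0.21). Genes that fell numbered 2069 with TMM, 3124 on total counts and 3229 and 3237 in limma on TPM with a pseudocount of 1 and 0.1, and genes that rose 2278, against 1294 and 1302 in limma on TPM. The median log2 change of all tested genes was 0.009 with TMM, -0.062 on total counts and -0.09 and -0.1 in those TPM fits. The replicate numbers 2 and 4 occur in both groups but are not said to pair samples (correlation of deviations from group means 0.128 and -0.0899). With the replicate number as a block, which leaves 1 residual degree of freedom, 2133 genes rose and 1793 fell, no member's call changed, and the log2 change of Snai2 was 0.03. Low read counts limit Cdh1, Esrp1, Krt8 and Krt18.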

Other observations

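In the list of EMT inducers the 1 gene that rose was the receptor Notch1, which had 5.9, 5.34 and 4.47 TPM in IFN gamma libraries, against 0.34, 0.35 and 0.5 TPM in control libraries. It rose by 3.84 ± 0.189 on the log2 scale (edgeR adjusted p = 4.6e-16). Its relative Notch2 fell by 0.36 and the ligand Jag1 by 1.38 on the log2 scale (edgeR adjusted p = 4.23e-05 and 1.08e-07), both named after their values were seen. Of 6 neural markers 3 had a row and 2 were tested. The neuronal beta-tubulin Tubb3 averaged 322 ± 18.3 TPM with IFN gamma and 8.54 ± 1.22 TPM in control and rose by 5.35 ± 0.117 on the log2 scale (edgeR adjusted p = 2.51e-22).

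The cytolinkers that tie intermediate filaments such as vimentin to other structures moved in opposite directions. Plectin (Plec) averaged 49.4 ± 5.21 TPM with IFN gamma and 76.4 ± 2.84 TPM in control (log2 -0.52, edgeR adjusted p = 2.92e-07), and dystonin (Dst) averaged 32.8 ± 2.51 TPM with IFN gamma and 27.9 ± 1.93 TPM in control (log2 0.34, edgeR adjusted p = 2.56e-05). Of 8 tested filament and linker genes 1 rose and 2 fell, a share called close to the 38.1% of all tested genes, while 4 fell on total counts and in limma on TPM, and 1 fell with DESeq2, with the replicate number as a block and without control replicate 2. The lamins Lmna and Lmnb1 had log2 -0.12 and -0.02 (edgeR adjusted p = 0.104 and 0.758).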
